A study of Mus musculus with 6 samples.

Results

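The genes described here encode the folding and quality-control machinery of the endoplasmic reticulum (ER): chaperones, disulfide and prolyl isomerases, ER-associated degradation, the stress sensors with the factors they activate, and the UFM1 conjugation pathway. They were chosen as a list of 49 gene symbols by known function. All 49 were found and tested among the 11478 tested genes of the deposited table. RNA was sequenced from the pancreas of 6 male mice aged 3 weeks. The control group was 3 wild-type mice of the C57Bl6/N strain, and the other group was 3 OCaR1-/- mice, in which both copies of OCaR1 are disrupted; neither group was treated. The knockouts' strain field carries the same entry as that of the controls, spelled C56Bl6/N. OCaR1 is the product of Tmem63a, which is background knowledge and not in the labels. The promoter, construct or clone behind the null allele is not given in the sources used here.

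Acinar cells of the pancreas make more secreted protein than almost any other cell, and every such protein enters the ER unfolded. Hsp70-type and lectin chaperones hold the new chains, disulfide isomerases form and rearrange their cystine bonds, and chains that fail to fold are pulled back to the cytosol and degraded. When unfolded protein builds up, the sensors IRE1 (gene Ern1), ATF6 and PERK raise the transcription of these same genes, in part through the factor XBP1. Acinar cells need XBP1 even without added stress.

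Each value below is 1 FPKM per genotype (fragments per kilobase of a transcript's length after scaling for library size), in which the authors combined the 3 mice of a group. No value of a single mouse stands behind it here, so no SD can be given, no overlap between mice can be described, and the depth is unknown. Of paired levels the first is the knockout's, and log2 fold changes are knockout over wild type, so negative values are lower in the knockout. A gene is called, or said to fall or rise, where the q-value of Cuffdiff in the authors' deposited table is under 0.05. The labels number the mice of each group as separate animals, and how Cuffdiff estimated the spread between them is not known here. In bulk tissue, fewer cells of a type and less RNA per cell cannot be told apart.

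Part of these genes fell in the knockout. In the authors' deposited table, 8 of the 49 genes were called lower in the knockout and 0 higher, where 3.35% of all tested genes were called lower and 4.2% higher (7.54% in either direction). At an unadjusted p under 0.05 in that table, 11 were lower and 0 higher, against 9.11% and 8.36% of all tested genes. The called genes were Ern1, Herpud1, Syvn1, Edem2, Edem3, Derl3, Dnajb9 and Sdf2l1, and their knockout levels lay between 63.6% and 81.2% of wild type. The median log2 fold change of the 49 genes was -0.13, beside -0.03 over all tested genes, and 38 of the 49 values were below 0 (35 when centred on the median of all tested genes, 43 with equal summed FPKM, 49 with equal summed FPKM outside the digestive enzymes). Of all tested genes 55.2% were below 0, and 50.0%, 62.2% and 78.1% with these scalings in the same order. Of the tested genes with at least 5 FPKM in either genotype 59.8% were below 0, with a median of -0.06. The scaling to equal summed FPKM outside the digestive enzymes moved the median of all tested genes from -0.03 to -0.23, with the 49 genes then at -0.32. The digestive enzymes left out in this scaling are a list that also holds acinar genes encoding no enzyme, such as Spink3, Reg1, Zg16, Sycn and Gp2. The list was drawn up with earlier results of these data known, so its counts describe these 2 groups and are not independent evidence of a direction.

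**Figure D1:**
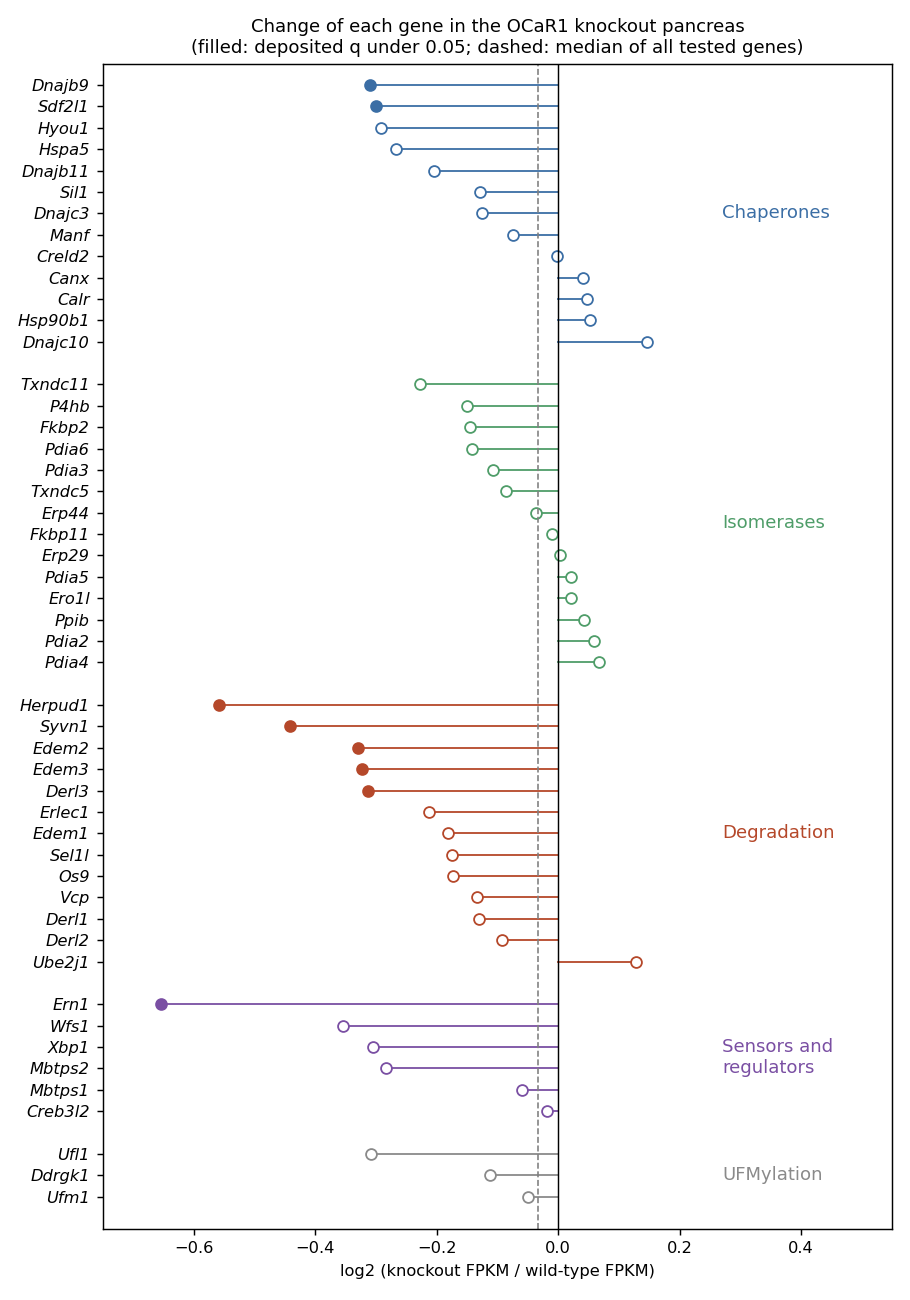
The horizontal axis gives the log2 ratio of knockout to wild-type FPKM for each of the 49 genes, grouped by role; filled points have a deposited q under 0.05, open points do not, and the dashed line is the median of all tested genes at -0.03. The filled points are 5 degradation genes, 2 chaperone genes and Ern1, all left of 0, and no isomerase gene is filled.

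Sequence was looked at first, since the stress sensors act through short promoter elements. RefSeq promoters (build GRCm38.p6, 250 bases before to 50 after the start site) were matched for 42 of the 49 genes; those without one were Derl1, Erlec1, Ero1l, Erp29, Hyou1, Manf and Sil1. The ER stress response element, ERSE, was searched as CCAAT and CCACG with any 9 bases between them, its shorter form ERSE-II as ATTGG and CCACG with any 1 base between them, and the XBP1 element as TGACGTGG, all on both strands. An ERSE stood in the promoters of 9 of the 42 genes (21.4%) and in those of 0.137% of all 27025 genes with a RefSeq promoter. ERSE-II stood in 2 of 42 (4.76%, beside 0.0444% of all these genes) and the XBP1 element in 4 of 42 (9.52%, beside 0.714%). The elements are known from genes of this kind, among them Hspa5, so their higher share here is not an independent result. The 16 matches in 15 genes did not overlap each other. A match is a description of letters, not a shown binding site.

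The promoters of the 3 genes that were called lower and hold a match are printed here, with the 250 bases before the start site in the direction of the gene; capitals mark the fixed letters of the match.
Herpud1 promoter, chr8:94386179-94386428, plus strand: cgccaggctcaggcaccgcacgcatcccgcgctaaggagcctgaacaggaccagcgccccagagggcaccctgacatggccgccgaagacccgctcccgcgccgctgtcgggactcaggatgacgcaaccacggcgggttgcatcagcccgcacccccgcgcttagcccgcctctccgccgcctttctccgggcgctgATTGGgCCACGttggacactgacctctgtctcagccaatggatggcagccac
Syvn1 promoter, chr19:6046326-6046575, plus strand: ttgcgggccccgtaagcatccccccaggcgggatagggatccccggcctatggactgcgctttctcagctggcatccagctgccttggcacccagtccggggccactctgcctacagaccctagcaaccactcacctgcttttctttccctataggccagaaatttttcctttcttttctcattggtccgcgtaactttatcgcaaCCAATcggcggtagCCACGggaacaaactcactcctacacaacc
Derl3 promoter, chr10:75893148-75893397, plus strand: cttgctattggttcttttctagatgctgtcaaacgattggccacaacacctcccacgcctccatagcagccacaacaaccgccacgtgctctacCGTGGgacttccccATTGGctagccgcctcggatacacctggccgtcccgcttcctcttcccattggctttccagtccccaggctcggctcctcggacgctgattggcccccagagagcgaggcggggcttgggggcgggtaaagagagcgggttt
The Herpud1 match is an ERSE-II, 52 to 42 bases before the start site. The Syvn1 match is an ERSE 44 to 26 bases before it, and the Derl3 match is an ERSE on the opposite strand, 156 to 138 bases before it.

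The same element stands in promoters of genes that were not called. Hspa5, the gene in which the element is best known, and Hsp90b1, which holds 2, are printed for that comparison, capitals as before.
Hspa5 promoter, chr2:34771840-34772089, plus strand: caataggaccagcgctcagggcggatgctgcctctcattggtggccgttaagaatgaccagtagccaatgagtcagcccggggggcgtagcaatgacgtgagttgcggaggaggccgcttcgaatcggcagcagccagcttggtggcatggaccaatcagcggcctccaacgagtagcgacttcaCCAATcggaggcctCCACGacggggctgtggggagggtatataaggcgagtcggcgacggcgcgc
Hsp90b1 promoter, chr10:86705445-86705694, minus strand: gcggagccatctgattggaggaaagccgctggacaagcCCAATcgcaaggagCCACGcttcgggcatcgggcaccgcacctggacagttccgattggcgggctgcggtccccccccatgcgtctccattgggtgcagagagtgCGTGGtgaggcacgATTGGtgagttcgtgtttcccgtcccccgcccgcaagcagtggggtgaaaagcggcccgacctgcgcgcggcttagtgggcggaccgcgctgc
Further ERSE matches, written in the direction of the element with its fixed letters in capitals, came from genes without a call.
Calr: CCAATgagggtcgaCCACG
Canx: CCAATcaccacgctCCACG
Creld2: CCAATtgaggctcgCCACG
Dnajc3: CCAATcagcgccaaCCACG
Pdia6: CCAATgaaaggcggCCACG
The fixed letters are the same in all of them by the search, and the spacers differ from gene to gene. Of the 8 called genes, 3 held any of the 3 motifs (37.5%), and of the 34 genes without a call that had a promoter 12 did (35.3%). The median log2 fold change was -0.13 over the 15 genes with a match and -0.14 over the 27 without. The called genes Ern1, Edem2, Edem3, Dnajb9 and Sdf2l1 had no full match to any of the 3 motifs in this window.

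**Figure D2:**
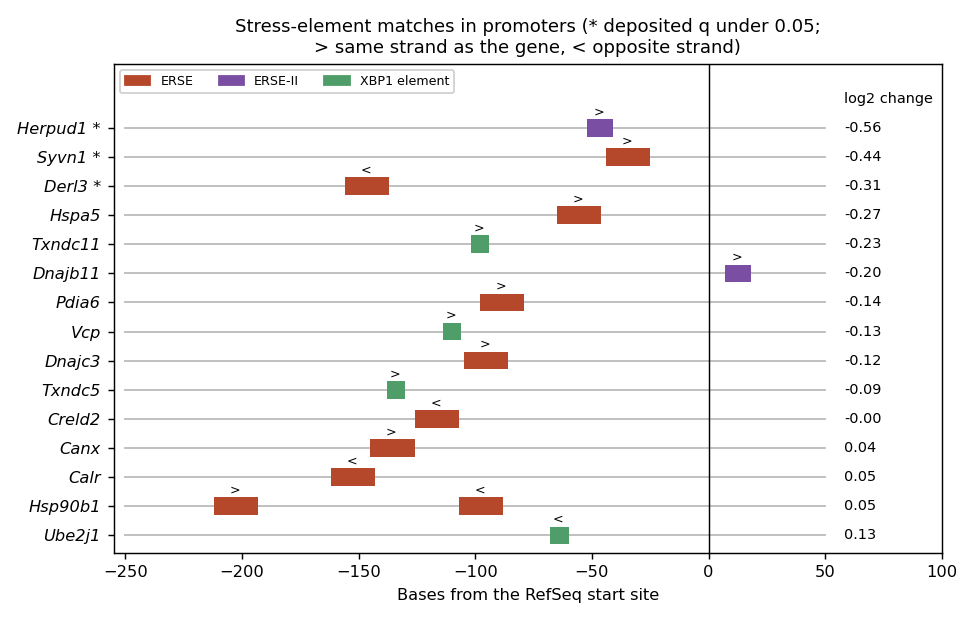
Each line is the promoter of 1 gene, with the distance in bases from the RefSeq start site on the horizontal axis, coloured boxes at matches to the 3 motifs and the log2 fold change at the right; stars mark genes with a deposited q under 0.05. Genes with an ERSE run from Syvn1, at -0.44, to Hsp90b1, at 0.05.

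Degradation genes held most of the calls. ER-associated degradation marks misfolded glycoproteins by trimming mannose, carries them across the membrane through a channel built on the SYVN1 ligase, and hands them to the proteasome. In the authors' deposited table, 5 of 13 of these genes were called lower and 0 higher, beside 3.35% and 4.2% of all tested genes. Of the 13 log2 fold changes 12 were below 0, beside 55.2% of all tested genes. The exception was Ube2j1, which also turns negative with equal summed FPKM outside the digestive enzymes. The median of the 13 genes was -0.18 and their summed level was 827 FPKM in knockout and 1030 FPKM in wild-type pancreas.

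Herpud1, a stress-induced membrane protein that gathers the ligase complex, was the most abundant of them. It had 213 FPKM in knockout and 314 FPKM in wild-type pancreas, a log2 fold change of -0.56 (q = 0.00152 in the authors' deposited table). Herpud1 (ENSMUSG00000031770, protein-coding) lies at GRCm38 chr8:94386438-94395377 on the plus strand, by GENCODE M21, and shares its interval in the table with Gm15889 and Gm15890. Syvn1, the ubiquitin ligase also called HRD1, had 21.9 FPKM in knockout and 29.7 FPKM in wild-type pancreas, a log2 fold change of -0.44 (q = 0.010 in the authors' deposited table). Syvn1 (ENSMUSG00000024807, protein-coding, chr19:6046576-6053712, plus strand) shares its interval with Mrpl49 and Mir6988, so reads of neighbours could be divided between them. Sel1l, the adaptor that holds SYVN1 in its complex, was not called, at 179 and 202 FPKM (log2 fold change -0.17, q = 0.682 in the authors' deposited table).

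The mannosidase-like EDEM proteins mark glycoproteins for disposal. Of their 3 genes 2 were called lower, beside 3.35% of all tested genes, and 3 genes are too few to read this count. Edem2 (ENSMUSG00000038312, chr2:155701677-155729475, minus strand) had 95.5 FPKM in knockout and 120.0 FPKM in wild-type pancreas, a log2 fold change of -0.33 (q = 0.0256 in the authors' deposited table). Edem3 (ENSMUSG00000043019, chr1:151755371-151822051, plus strand) had 21.9 FPKM in knockout and 27.4 FPKM in wild-type pancreas, a log2 fold change of -0.32 (q = 0.0280 in the same authors' deposited table). Edem1 stood at 51.3 and 58.2 FPKM without a call (log2 fold change -0.18, q = 0.353 in the authors' deposited table). The readers of the trimmed sugar, Os9 (log2 fold change -0.17) and Erlec1 (-0.21), were not called either.

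Among the derlins, membrane proteins of the export channel, Derl3 was called. Derl3 (ENSMUSG00000009092, chr10:75893413-75895941, plus strand) had 95.2 FPKM in knockout and 118 FPKM in wild-type pancreas, a log2 fold change of -0.31 (q = 0.0352 in the authors' deposited table). Derl3 was the most abundant derlin in both genotypes, and Derl1, at 14.6 and 16.0 FPKM, and Derl2, at 21.8 and 23.2 FPKM, were not called. Vcp, the cytosolic ATPase that pulls substrates out, stood at 11.2 and 12.3 FPKM without a call. Ube2j1, a ubiquitin-conjugating enzyme of the ER membrane, was the only degradation gene of the list with a higher value in the knockout, 29.3 against 26.8 FPKM, without a call (log2 fold change 0.13, q = 0.815 in the authors' deposited table).

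Of the sensors and regulators, Ern1 fell. It encodes IRE1, which splices Xbp1 mRNA when unfolded protein builds up. Ern1 (ENSMUSG00000020715, protein-coding, chr11:106394650-106487852, minus strand) had 9.01 FPKM in knockout and 14.2 FPKM in wild-type pancreas, a log2 fold change of -0.65 (q = 0.00152 in the authors' deposited table). This was the lowest log2 fold change of the 49 genes. Xbp1, its substrate, had 246 and 304 FPKM and missed the threshold, with a log2 fold change of -0.31 (p = 0.0103, q = 0.105 in the authors' deposited table). Spliced and unspliced Xbp1 are not separated in a gene-level FPKM.

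The other regulators were not called. Wfs1, an ER membrane protein whose loss causes Wolfram syndrome, had 4.91 and 6.28 FPKM, a log2 fold change of -0.35 (p = 0.0421, q = 0.256 in the authors' deposited table). Its fold change was larger in size than those of 5 called genes. Mbtps1 (8.79 and 9.16 FPKM) and Mbtps2 (2.73 and 3.33 FPKM), the site proteases that release ATF6, were not called, nor was Creb3l2 (5.40 and 5.47 FPKM), a transcription factor released by the same proteases. All 6 values of this class were below 0, beside 55.2% of all tested genes, though Creb3l2 turns positive when centred on the median of all tested genes. The class median was -0.29, and 1 of 6 was called in the authors' deposited table, beside 7.54% of all tested genes.

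Among the 13 chaperone genes the authors' deposited table called 2 lower and 0 higher, beside 3.35% and 4.2% of all tested genes. Dnajb9, a co-chaperone that binds misfolded chains and restrains IRE1, had 21.3 FPKM in knockout and 26.4 FPKM in wild-type pancreas, a log2 fold change of -0.31 (q = 0.0416 in the authors' deposited table). It lies at chr12:44205559-44210326 on the minus strand (ENSMUSG00000014905). Sdf2l1, which works with the ER Hsp40 co-chaperones, had 75.5 FPKM in knockout and 93.0 FPKM in wild-type pancreas, a log2 fold change of -0.30 (q = 0.0368 in the authors' deposited table), and lies at chr16:17130138-17132383 on the minus strand (ENSMUSG00000022769). Both genes are protein-coding and share their interval with no other row of the table.

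The Hsp70-type chaperones themselves had lower values without a call. Hspa5, which encodes BiP, the central ER chaperone, had 369 FPKM in knockout and 444 FPKM in wild-type pancreas, a log2 fold change of -0.27 (p = 0.109, q = 0.441 in the authors' deposited table). Hyou1, a nucleotide exchange factor of BiP, was nearest to the threshold from outside, at 51.4 and 62.8 FPKM (log2 fold change -0.29, q = 0.0814 in the authors' deposited table). Sil1, the other exchange factor of the list, stood at 22.9 and 25.03 FPKM without a call. The co-chaperone genes Dnajb11 (155 and 178 FPKM) and Dnajc3 (65.5 and 71.4 FPKM) were not called, and Dnajc10, whose product also reduces disulfides, had the highest log2 fold change of the list, 0.15 (q = 0.793 in the authors' deposited table).

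The lectin chaperones calreticulin and calnexin, which hold glycoproteins, differed between the genotypes by less than 0.1 on the log2 scale, as deposited. Calr had 186 and 180 FPKM (log2 fold change 0.05, q = 0.927 in the authors' deposited table), and Canx had 97.2 and 94.5 FPKM (0.04, q = 0.958). Hsp90b1, the ER member of the Hsp90 family, stood at 141 and 136 FPKM (log2 fold change 0.05, q = 0.8997 in the authors' deposited table). Of the secreted stress factors, Manf had 307 and 324 FPKM and Creld2 50.1 and 50.2 FPKM, neither called. A q above the threshold does not show that these levels were equal, and without values per mouse no interval of the difference can be given.

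**Figure D3:**
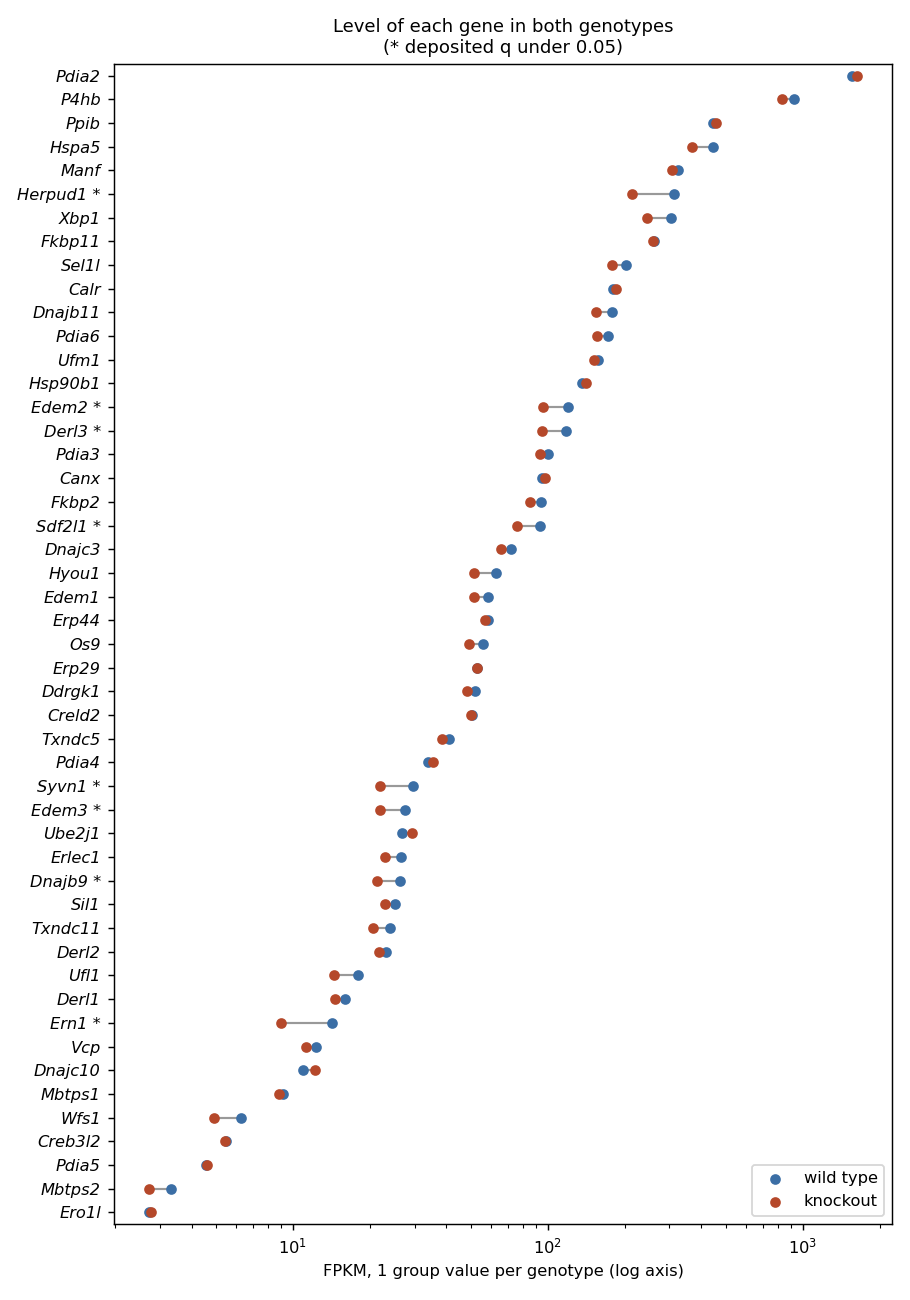
Points give the group FPKM of each of the 49 genes in wild type (blue) and knockout (red) on a log axis, in order of the wild-type level, and stars mark genes with a deposited q under 0.05. Pdia2 stands at the top in both genotypes, and the widest gaps on this axis are those of Ern1 and Herpud1.

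The isomerases were the most abundant class and held no call. Disulfide isomerases catalyse cystine formation, and prolyl isomerases turn peptide bonds before proline. In the authors' deposited table, 0 of 14 of their genes were called by Cuffdiff in either direction, beside 7.54% of all tested genes. At that share, 0 calls among 14 genes is not unusual. An unadjusted p under 0.05 by Cuffdiff was held by 0 of the 14, beside 9.11% (lower) and 8.36% (higher) of all tested genes. The summed level of the class was 3728 FPKM in knockout and 3780 FPKM in wild-type pancreas, and its median log2 fold change was -0.02. Relative to the median of all tested genes that value turns to 0.0096, so no direction is given for the class.

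Pdia2, the disulfide isomerase known for its expression in the pancreas, had the highest level of all 49 genes, 1632 FPKM in knockout and 1567 FPKM in wild-type pancreas (log2 fold change 0.06, q = 0.930 in the authors' deposited table). P4hb, the classical disulfide isomerase, followed at 832 and 923 FPKM (log2 fold change -0.15, q = 0.799 in the authors' deposited table). Of the FPKM summed over the 49 genes, Pdia2 and P4hb accounted for 37.3% in the knockout and 35.2% in wild type. Ppib, the cyclophilin of the ER, stood at 458 and 445 FPKM, and the prolyl isomerase genes Fkbp11 (259 and 261 FPKM) and Fkbp2 (85.0 and 93.9 FPKM) were not called. Of the 4 genes with at least 400 FPKM in wild type, Pdia2, P4hb, Ppib and Hspa5, 0 were called by Cuffdiff in the authors' deposited table, also at an unadjusted p under 0.05. With 7.54% of all tested genes called, 4 genes are too few to read this count.

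The remaining disulfide isomerase family members lay between log2 fold changes of -0.23 and 0.07. Txndc11 had the lowest, at 20.6 and 24.1 FPKM (log2 fold change -0.23, q = 0.592 in the authors' deposited table), and Pdia4 the highest, at 35.3 and 33.7 FPKM (0.07, q = 0.838). Pdia6 (156 and 173 FPKM), Pdia3 (93.1 and 100.3 FPKM), which works with the lectin chaperones, and Txndc5 (38.6 and 40.9 FPKM) had slightly lower values in the knockout without a call. Erp44 (56.7 and 58.1 FPKM), which returns ER proteins from the Golgi, Erp29 (52.9 and 52.7 FPKM) and Pdia5 (4.62 and 4.55 FPKM) lay within 0.1 of 0 on the log2 scale. Ero1l, an oxidase that recharges the isomerases, had the lowest wild-type level of the list, 2.76 and 2.72 FPKM.

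The UFM1 pathway attaches the ubiquitin-like UFM1 to ribosomes at the ER. None of the 3 genes listed, Ufm1 (152 and 157 FPKM), its ligase gene Ufl1 (14.5 and 17.97 FPKM) and the ligase adaptor gene Ddrgk1 (48.1 and 52.0 FPKM), was called in the authors' deposited table, where 0 had an unadjusted p under 0.05 by Cuffdiff. Ufl1 had the lowest log2 fold change of them, -0.31 (p = 0.0612, q = 0.322 in the authors' deposited table). The other 5 genes of the pathway, from a separate list, had a median of -0.24, with 0 called by Cuffdiff in the authors' deposited table. At an unadjusted p under 0.05 by Cuffdiff, 2 were lower and 0 higher, beside 9.11% and 8.36% of all tested genes. Among them was Ufc1, which encodes the conjugating enzyme (61.7 and 73.0 FPKM, p = 0.0163 in the authors' deposited table). With 7.54% of all tested genes called, lists of 3 and 5 genes are too short to read 0 calls, and too short to read the counts at an unadjusted p.

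**Figure D4:**
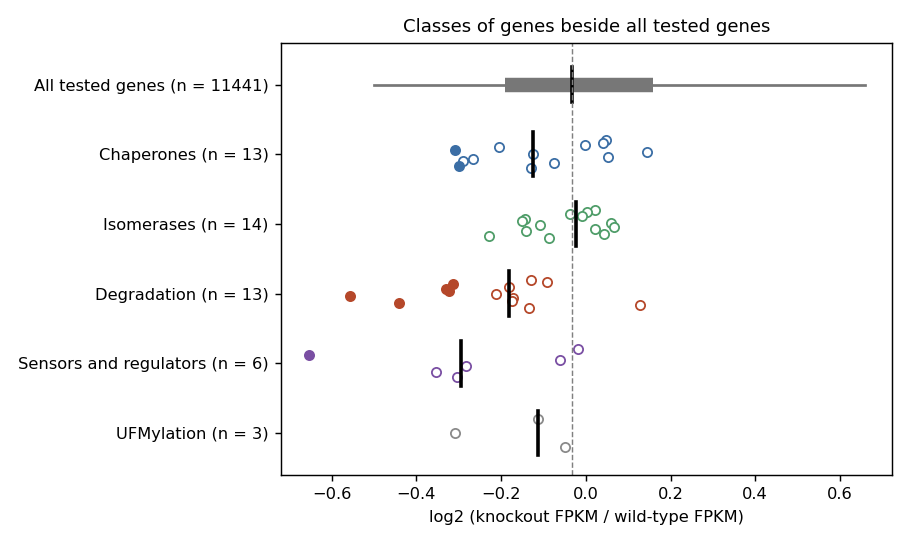
The horizontal axis is the log2 ratio of knockout to wild-type FPKM. The grey bar spans the 25th to 75th percentile of all tested genes and the grey line the 5th to 95th; circles are single genes of each class, filled where the deposited q is under 0.05, and black strokes are medians, which run from -0.29 for sensors and regulators to -0.02 for isomerases.

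The rest of the pathway was taken from 4 further lists, of folding, degradation, UFM1 conjugation and stress signalling genes. The signalling list also holds genes of general stress responses that are not particular to the ER. Of 141 tested genes in the 4 lists, the authors' deposited table called 12 lower and 1 higher, and their median was -0.09. Over all tested genes 3.35% were called lower and 4.2% higher. Folding genes outside the main list held 1 call of 53, Dnajb12, a membrane co-chaperone (8.03 and 10.3 FPKM, log2 fold change -0.35), with a median of 0.03. Degradation genes outside it held 3 calls lower and 1 higher of 52, with a median of -0.15. The counts of both lists lie near the shares over all tested genes. Rhbdd1, a rhomboid protease (log2 fold change -0.50), Foxred2, an ER flavoprotein of degradation (-0.51), and March6, a ligase of the ER membrane (-0.30), fell. Fam134b, a receptor for autophagy of the ER, rose from 52.9 to 68.5 FPKM (log2 fold change 0.37, q = 0.0269 in the authors' deposited table).

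Stress signalling genes held 8 calls lower and 0 higher of 31, beside 3.35% and 4.2% of all tested genes, with a median of -0.18. Atf6, the second of the ER sensors, had 8.52 FPKM in knockout and 12.5 FPKM in wild-type pancreas (log2 fold change -0.55, q = 0.00152 in the authors' deposited table). Creb3l1, a factor processed like ATF6, had 13.5 and 19.1 FPKM (log2 fold change -0.51, q = 0.00152 in the authors' deposited table). Atf4, the factor translated when PERK and related kinases act, had 88.2 and 123 FPKM (log2 fold change -0.48), and its partner gene Cebpg 7.10 and 10.3 FPKM (-0.54), both called lower in the authors' deposited table. The others called were Trib3 (log2 fold change -1.71), Chac1 (-0.96), Nupr1 (-0.77) and Sesn2 (-0.62). Eif2ak3, which encodes PERK, the third sensor, and Ddit3, which encodes CHOP, were picked out after their values were seen. Eif2ak3 stood at 18.4 and 18.1 FPKM without a call, and Ddit3 at 9.005 and 15.4 FPKM (p = 0.0351, q = 0.227 in the authors' deposited table); both share their interval with another row.

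The targeted gene and marker genes of cell types were read beside these values. Tmem63a had 4.91 FPKM in knockout and 18.3 FPKM in wild-type pancreas (q = 0.00152 in the authors' deposited table). Both groups carried acinar RNA, with Cpa1 at 21972 and 23509 FPKM. The tested genes of the digestive enzyme list accounted for 63.0% and 66.5% of the FPKM summed over all rows. Of the 41 genes on this list 32 were tested. The list also holds genes encoding no enzyme, such as Spink3, Reg1, Zg16, Sycn and Gp2. The 32 tested genes went both ways, with 3 calls lower (Sycn among them), 6 calls higher (Spink3 among them) and a median log2 fold change of 0.09. The calls lower included Pnlip, at 7662 and 15748 FPKM, and Cela1, at 16591 and 37728 FPKM. Of 7 acinar transcription factor genes 3 were called lower and 0 higher, with a summed level of 284 and 306 FPKM. Ptf1a was among those called lower (27.2 and 40.9 FPKM), and Bhlha15 was not called (64.3 and 68.6 FPKM). Markers of other cell types moved too: 12 of 16 islet genes were called higher (summed level 4129 and 2575 FPKM), 10 of 12 macrophage genes (131 and 75.2 FPKM), 6 of 8 fat cell genes (213 and 102 FPKM), 5 of 9 stroma genes (463 and 352 FPKM) and 5 of 7 endothelial genes (50.0 and 36.7 FPKM), none of them with a call lower. Of 6 smooth muscle genes 5 were called lower (27.6 and 64.1 FPKM), and of 6 duct genes 1 was called higher (237 and 219 FPKM). Of 3 tested plasma and B cell genes, Igj was called higher (5.03 and 1.66 FPKM), while Sdc1 stood at 4.03 and 5.50 FPKM and Cd79b at 1.25 and 0.859 FPKM without a call; plasma cells also carry much of this ER machinery. Their part in the lower values of the ER genes was not tested.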

How the data were processed

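RNA of 6 pancreas samples, 3 per genotype, was sequenced after poly(A) selection, per the labels' protocols. Build GRCm38 and the tools STAR 2.5.1b, Cuffdiff and Cufflinks 2.2.1 were used, per the submitters' processing notes. The annotation release and Cuffdiff's scaling and dispersion settings were not given in the sources used here. Each table row the authors deposited holds 1 FPKM value per genotype for a gene, with the p-value and q-value of their test, per the file headers. The table has 0 columns of single samples, so depth is unknown and no test, interval or SD was added.

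Of 12016 rows, 538 were marked as not tested and left out. Fold changes were recomputed in Python 3.11.15 with pandas 2.3.3 as knockout over wild type without a pseudocount; values under 0.01 FPKM, which no gene listed here has, gave none. A call is a deposited q under 0.05. Of the 49 genes, 11 share their interval with another row. Gene positions come from GENCODE M21. Other thresholds, a filter at 5 FPKM, pseudocounts and 3 scalings were tried. Ratios, adjustment and motif search were tested on simulated data.

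The 49 genes and all lists were chosen with earlier results of these data known. All 49 genes could be named; of the other pathway lists, every called gene, or the 2 with the smallest p where none was called. A gene that this rule names is not reported here.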

Additional observations from a re-analysis of the deposited data

How the results depend on the processing

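Of the 50 alternative values of the counts and medians, 41 stayed within 1.5 times the count or within 0.1 (log2) of the median, and 8 moved beyond that. Equal summed FPKM shifts every gene by -0.047 and centring by 0.033. Both are under 0.1, so medians under these scalings could change only in sign, and their part of the 41 shows no stability. The count of 0 of the 49 genes called higher could not change at a stricter q or with genes left out. Recomputing the adjustment repeats the deposited one. These values among the 41 show no stability either. At q under 0.01 in the authors' deposited table, 2 of the 49 genes stayed called lower (Ern1 and Herpud1), beside 1.84% of all tested genes, and 0 other pathway genes were called higher by Cuffdiff. With equal summed FPKM outside the digestive enzymes the medians were -0.32 over all 49 genes, -0.32 for chaperones, -0.22 for isomerases, -0.38 for degradation, -0.49 for sensors and regulators and -0.31 for the UFM1 pathway, since this scaling shifts every gene by -0.19. The isomerase median reversed to 0.0096 when centred on all tested genes, by the same construction. At q under 0.1 in the authors' deposited table, 9 genes were lower, with Hyou1 added, beside 4.51% of all tested genes; leaving out genes that share an interval, which removes Herpud1 and Syvn1, left 6. No paired analysis was possible because the table holds 1 value per genotype and none per mouse, and for the same reason no mouse could be left out. Sizes near 0.3 on the log2 scale fell on both sides of the threshold: 3 genes without a call (Wfs1, Xbp1 and Ufl1) had changes at least as large as the smallest called one, 0.30.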
